A study of Ovis aries with 20 samples.

Results

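AMH, AMHR2, INHA, INHBA, INHBB and FST make up the anti-Müllerian hormone, inhibin, activin and follistatin system described here. They were taken by name from the 28524 genes of a table of RNA sequencing counts from sheep ovarian follicles, and each of the 6 was found there once, under NCBI gene identifiers 101121773 (AMH), 101109693 (AMHR2), 101118082 (INHA), 443524 (INHBA), 101119286 (INHBB) and 443323 (FST). In RefSeq's sheep assembly ARS-UI_Ramb_v3.0 no other gene overlaps any of them.

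The animals were adult female offspring of treated or control ewes, 10 in number and 21 months old. In the prenatal testosterone group, called prenatal T (sheep 209, 210, 230, 276 and 315) the ewe had been injected intramuscularly with 100 mg testosterone propionate, 1.2 mg/kg, 2 times a week between days 30 and 90 of gestation, and in the control group (sheep 139, 224, 244, 246 and 268) with vehicle over the same days. All offspring were given prostaglandin F2α, 10 mg in each of 2 injections 11 days apart, and the ovaries were removed 18 h after the second. Granulosa cells, the inner layer that makes estradiol, and theca cells, the outer layer that makes androgen, were cut out of 14 µm frozen sections and pooled over several antral follicles of an animal, so a library is a pool of follicles whose sizes the labels do not give. There were 5 prenatal T and 4 control granulosa libraries and 5 prenatal T and 5 control theca libraries, with 12.7 to 26.0 M reads each; granulosa cells of control sheep 139 were not analysed here. The comparison of treatments asks whether exposure to testosterone before birth leaves a difference in each layer of the adult follicle, and the comparison of layers asks where in the follicle wall a transcript is found.

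AMH is made by granulosa cells of growing follicles, holds back the recruitment of resting follicles and lowers the response to follicle-stimulating hormone (FSH). It acts through its own type II receptor, AMHR2. The inhibin alpha subunit INHA joins the beta subunit INHBA or INHBB to form inhibins, which reduce FSH release from the pituitary, whereas beta subunits joined to each other form activins, which raise it and act within the follicle. Follistatin, the product of FST, binds activins and keeps them from their receptors. The same INHBA and INHBB transcripts therefore feed both hormones, and RNA levels do not show how much of each dimer was made.

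The libraries of prenatal T sheep 209 stood apart. FSHR, the FSH receptor, and CYP19, the table's name for aromatase, were at 0 in its granulosa library, which went against its label. In its theca library 1 of 11 theca markers, the enzyme CYP17A1, was at 0, and the summed level of the 11 was 381004, below the other theca libraries and above every granulosa library. The collagens COL1A1, COL1A2 and COL3A1 gave 127254, 106209 and 108626 of that sum. The marker INSL3 was at 1.27, against 3546 to 18648 in the other theca libraries. The mean log2 level of the 11 was 10.7, against 13.4 to 13.6 in the other prenatal T and 13.4 to 13.7 in control theca libraries. Granulosa libraries of the other sheep had 9.48 to 10.4 in prenatal T and 10.2 to 11.0 in control sheep. The summed level of 9 granulosa markers was 23527 in its granulosa library, against 73411 to 96065 in the other 4 prenatal T and 52937 to 95594 in the 4 control granulosa libraries. The marker SERPINE2 gave 23197.5 of that sum, within its range of 15173 to 53977 in the other granulosa libraries. The mean log2 level of the 9 was 4.44, against 11.6 to 12.1 in the other prenatal T and 11.1 to 12.2 in control granulosa libraries. The summed level of 9 epithelial markers was 92321 in its granulosa and 22527 in its theca library. No other granulosa library exceeded 4139 and no other theca library 850. That of 7 immune cell markers was 13155 and 16342, against at most 2084 elsewhere. Its 8 ovulation and luteinization markers summed to 11990 in granulosa and 18099 in theca, against at most 5848 and 9734 in other sheep. Of these 8, HSD3B1 was at 1.15 and 1.27, below its range in the other libraries. Endothelial markers summed to 6501 and 22894, against at most 3940 and 19144. Smooth muscle and pericyte markers summed to 265181 in its theca library, above the others. In its granulosa library they summed to 10896, below the others. In the libraries of the other sheep the layers were as labelled, and the 11 theca markers summed to 589721 to 711644 in prenatal T and 646923 to 877923 in control theca, against 21030 to 40966 in prenatal T and 34590 to 82176 in control granulosa. The tests and list counts below are given with all libraries and without sheep 209. Group means, percents, ratios, spreads and correlations, and the values of single list genes, are given without it, and sheep 209 is named where it is included. Levels are normalized counts, the gene's read count divided by a size factor of its library, and they are not adjusted for gene length, so they are compared between libraries and not between genes.

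AMH was high in granulosa cells and about 5 to 7 times lower in theca cells, apart from sheep 209, where it was not detected. In prenatal T granulosa libraries it had normalized counts of 0, 4801, 4056, 7774 and 3652 in sheep 209, 210, 230, 276 and 315, against 5386, 3453, 2629 and 6293 in control granulosa libraries of sheep 224, 244, 246 and 268. In prenatal T theca libraries it had 0, 895, 608, 1569 and 683 in the same order, against 327, 1114, 461, 483 and 733 in control theca libraries of sheep 139, 224, 244, 246 and 268. Leaving out sheep 209, every granulosa library lay above every theca library, while the prenatal T and control values overlapped within each layer. The 0 of sheep 209 came from libraries in which 3 reads would equal a normalized count of 3.45 in granulosa and 3.80 in theca cells, a limit that covers counting error only.

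AMHR2 was also higher in granulosa than in theca cells, at low counts in both. Its granulosa values were 38.0, 103, 129, 143 and 86.4 in the prenatal T libraries, against 148, 143, 163 and 131 in the control libraries. Its theca values were 19.0, 68.3, 29.3, 43.0 and 37.5 in the prenatal T libraries, against 40.2, 31.8, 52.2, 75.8 and 36.7 in the control libraries. Sheep 209 was lowest in both layers, and without it the treatments overlapped in granulosa cells because sheep 276 of the prenatal T group reached the range of the controls. Outside sheep 209 these values rest on 73 to 266 reads per granulosa library and 28 to 70 per theca library, whereas AMH had 3084 to 9690 and 309 to 1532.

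INHA, the subunit that makes a dimer an inhibin, had the same layered pattern. Without sheep 209 it varied more between animals than AMH and AMHR2 in granulosa cells, but not more than AMH in theca cells. Its granulosa values were 8.05, 9914, 14803, 25895 and 38080.4 in the prenatal T libraries, against 9745, 28936, 7238 and 22501 in the control libraries. Its theca values were 7.59, 2134, 2033, 6549.6 and 3969.6 in the prenatal T libraries, against 2073, 2432.5, 4665, 1493 and 2500.1 in the control libraries. The highest theca library, sheep 276, stayed below the lowest granulosa library other than that of sheep 209, and within a layer the treatments overlapped.

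INHBA, the beta A subunit of inhibin A and activin A, varied more from sheep to sheep than any of the other 5 genes. In granulosa cells it had 330.2, 5293, 11825, 19596 and 60870.2 in the prenatal T libraries, against 2807, 51113, 3087 and 16190.0 in the control libraries. In theca cells it had 5857, 2349, 2039, 7207 and 6718 in the prenatal T libraries, against 1906, 1409, 8203, 1690.4 and 2495 in the control libraries. It was the gene whose layers overlapped even without sheep 209, because granulosa of control sheep 224 and 246 and of prenatal T sheep 210 lay within the range of theca. Sheep 209 broke the pattern in the other direction, with 330.2 in granulosa and 5857 in theca cells, and its theca value was among the higher ones although INHA was near 0 there.

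INHBB, the beta B subunit, had layers that did not overlap without sheep 209, as was the case for INHA. Its granulosa values were 115, 6963, 8413, 12712 and 10362 in the prenatal T libraries, against 4647, 12799.6, 3486 and 14054 in the control libraries. Its theca values were 1450.0, 1616, 1251, 2557 and 1211 in the prenatal T libraries, against 1041, 1347, 1917, 851 and 1976 in the control libraries. The theca library of sheep 209 sat in the middle of this range while its granulosa library was the lowest of all.

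FST had granulosa values of 43.7, 8682, 13896, 21565 and 13981 in the prenatal T libraries, against 10769.7, 16876, 6844 and 17909.7 in the control libraries. Its theca values were 67.1, 1679.8, 2020.0, 4804 and 1770.3 in the prenatal T libraries, against 1434, 2280.2, 2675, 1498 and 1779 in the control libraries. Sheep 276 of the prenatal T group had the highest value in both layers, and it was also the highest for AMH in both.

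**Figure D1:**
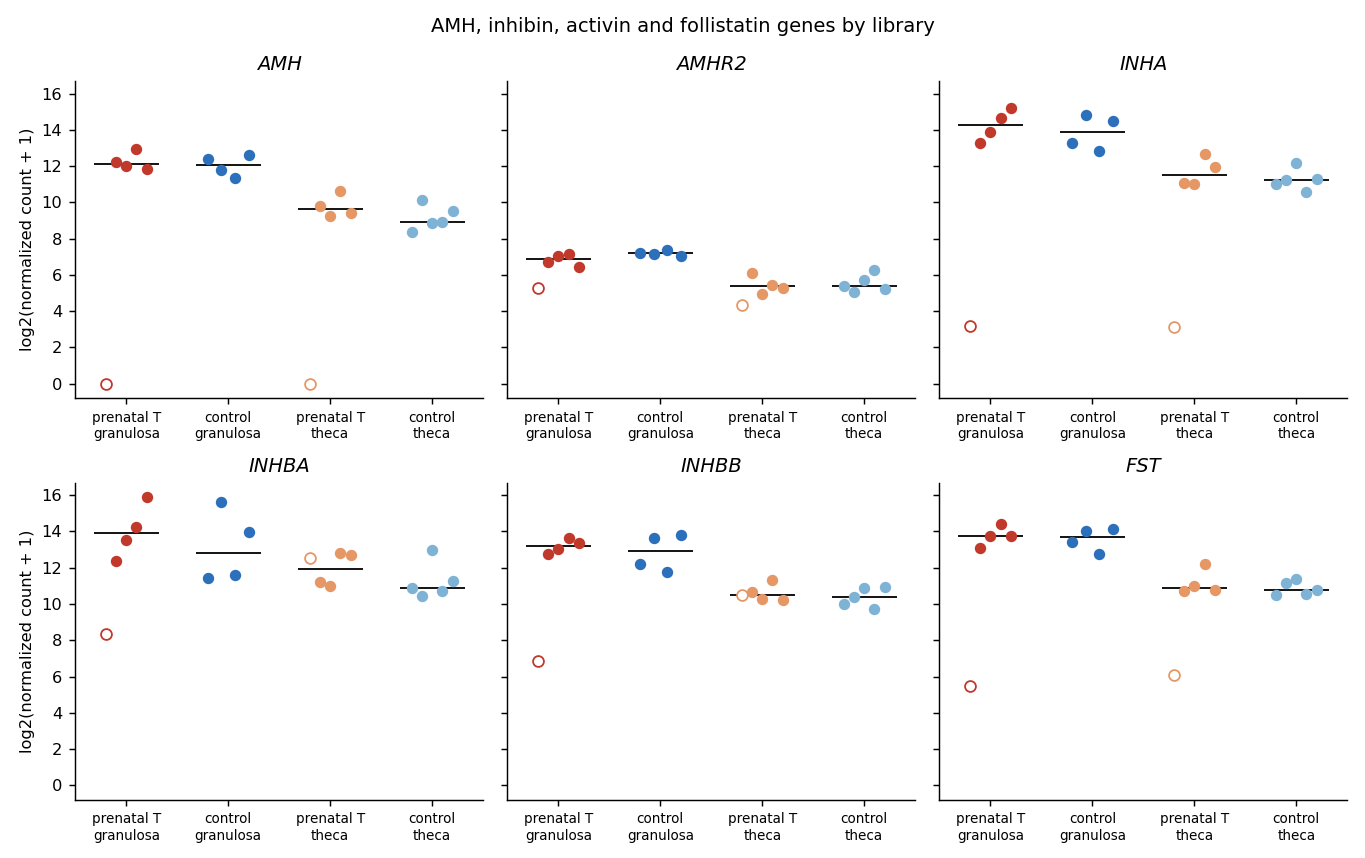
Level of each gene in every library, as log2 of the normalized count plus 1, with prenatal T granulosa, control granulosa, prenatal T theca and control theca libraries from left to right. Filled points are libraries, open points are the libraries of sheep 209, and the line is the median of a group without sheep 209; the granulosa groups stand above the theca groups in each panel, with overlap for INHBA, and treatments overlap within each layer.

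Without sheep 209 the 4 group means fell in the same order for 5 of the 6 genes. For AMH they were 5071 ± 1864 in prenatal T granulosa, 4440.3 ± 1691 in control granulosa, 939 ± 437 in prenatal T theca and 624 ± 311 in control theca (SD, n = 4, 4, 4 and 5 here and for the next genes). INHA averaged 22173 ± 12537 in prenatal T and 17105 ± 10338 in control granulosa, and 3672 ± 2115 in prenatal T and 2633 ± 1204 in control theca. INHBA averaged 24396 ± 25009 in prenatal T and 18299 ± 22749.8 in control granulosa, and 4578 ± 2763 in prenatal T and 3140.5 ± 2858 in control theca, so that its SD was about as large as its mean in granulosa cells. INHBB averaged 9613 ± 2492 in prenatal T and 8747 ± 5449 in control granulosa, and 1658 ± 626 in prenatal T and 1426 ± 507 in control theca. FST averaged 14531 ± 5304 in prenatal T and 13099.8 ± 5227 in control granulosa, and 2569 ± 1497 in prenatal T and 1933 ± 532 in control theca. AMHR2 was the exception, with 116 ± 25.5 in prenatal T and 146 ± 13.2 in control granulosa, and 44.5 ± 16.8 in prenatal T and 47.3 ± 17.6 in control theca. The prenatal T and control groups of a layer are neighbours in each order, and for each gene they differed by less than the larger of their SDs except AMHR2 in granulosa cells.

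The 6 genes were higher in granulosa than in theca cells in both treatment groups once sheep 209 was left out. Levels were compared by limma, a linear model fitted over all genes, on log2 of the normalized count plus 1, with the sheep as a block and p adjusted by Benjamini-Hochberg over all genes tested at a threshold of 0.05. In prenatal T sheep without sheep 209, 6 of 6 genes passed as higher in granulosa cells, where 26.9% of the 16021 genes tested did. In control sheep, in the same fit, 6 of 6 passed as well, where 26.0% of genes did. Fewer cells of a type and less RNA per cell cannot be told apart in such pooled libraries.

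AMH was 5.54-fold higher in granulosa cells of prenatal T sheep (log2 2.47 ± 0.23, SE, limma adjusted p = 1.70e-07) and 6.84-fold higher in those of control sheep (2.77 ± 0.23, adjusted p = 5.03e-08). FST was 5.96-fold higher in prenatal T sheep (2.57 ± 0.23, adjusted p = 1.09e-07) and 6.28-fold higher in control sheep (2.65 ± 0.23, adjusted p = 8.07e-08). INHA was 5.98-fold higher in prenatal T sheep (2.58 ± 0.31, adjusted p = 2.78e-06) and 5.85-fold higher in control sheep (2.55 ± 0.30, adjusted p = 2.96e-06), and INHBB was 5.92-fold higher in prenatal T sheep (2.57 ± 0.26, adjusted p = 3.58e-07) and 5.25-fold higher in control sheep (2.39 ± 0.25, adjusted p = 7.50e-07). The 95% intervals of these 4 genes overlapped. INHBA had a wider interval, at 4.24-fold in prenatal T sheep (95% interval of the log2 difference 0.93 to 3.23, adjusted p = 0.00379) and 3.59-fold in control sheep (0.72 to 2.97, adjusted p = 0.00806). AMHR2 had the smallest difference, at 2.63-fold in prenatal T sheep (0.92 to 1.88, adjusted p = 6.49e-05) and 3.14-fold in control sheep (1.18 to 2.12, adjusted p = 1.04e-05). The median log2 difference over the 6 genes was 2.52 in prenatal T sheep, where the median over all genes was -0.0058, and 2.47 in control sheep, where it was 0.038.

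With all libraries 2 of 6 genes passed in prenatal T sheep, where 21.9% of 16269 genes passed as higher in granulosa, and 3 of 6 passed in control sheep, where 20.0% did. AMHR2 passed in both groups, at log2 1.31 ± 0.23 in prenatal T sheep (adjusted p = 0.000218) and 1.65 ± 0.26 in control sheep (adjusted p = 7.73e-05). FST passed at 1.94 ± 0.71 in prenatal T sheep (adjusted p = 0.0324) and 2.64 ± 0.77 in control sheep (adjusted p = 0.0116), and INHBB passed in control sheep alone, at 2.38 ± 0.76 (adjusted p = 0.0182), against 1.32 ± 0.69 in prenatal T sheep (adjusted p = 0.129). AMH missed the threshold in this fit at 1.98 ± 1.05 in prenatal T sheep (adjusted p = 0.136) and 2.75 ± 1.15 in control sheep (adjusted p = 0.0646), although its control values are the same in both fits, since sheep 209 enters the shared estimate of the spread. INHA stood at 2.08 ± 0.96 in prenatal T sheep (adjusted p = 0.0866) and 2.54 ± 1.05 in control sheep (adjusted p = 0.0626), and INHBA at 0.84 ± 0.77 in prenatal T sheep (adjusted p = 0.399) and 1.84 ± 0.84 in control sheep (adjusted p = 0.0905). Without the sheep as a block the calls of FST (adjusted p = 0.351 in prenatal T and 0.219 in control sheep) and INHBB (0.101 in control sheep) were lost, and the number of genes called in either direction fell to 3048, against 7367 with the block, in prenatal T sheep and to 2691, against 6549, in control sheep. The call of INHBB in control sheep was also lost without sheep 244 (adjusted p = 0.0767) or 268 (0.0802), that of FST in control sheep without 268 (0.0632), and that of FST in prenatal T sheep without 210 (0.0946), 230 (0.105), 276 (0.0698) or 315 (0.105). edgeR's quasi-likelihood test on the recovered reads of all libraries called AMH (adjusted p = 8.90e-06 in prenatal T and 1.76e-05 in control sheep) and INHA (0.000161 in prenatal T and 0.000246 in control sheep) as well.

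Seen library by library, every granulosa library lay above every theca library in prenatal T sheep without sheep 209 for 5 of the 6 genes, all but INHBA, where 15.9% of genes showed this. In control sheep the same 5 genes separated, where 11.9% of genes did. With sheep 209 none of the 6 separated in prenatal T sheep.

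**Figure D2:**
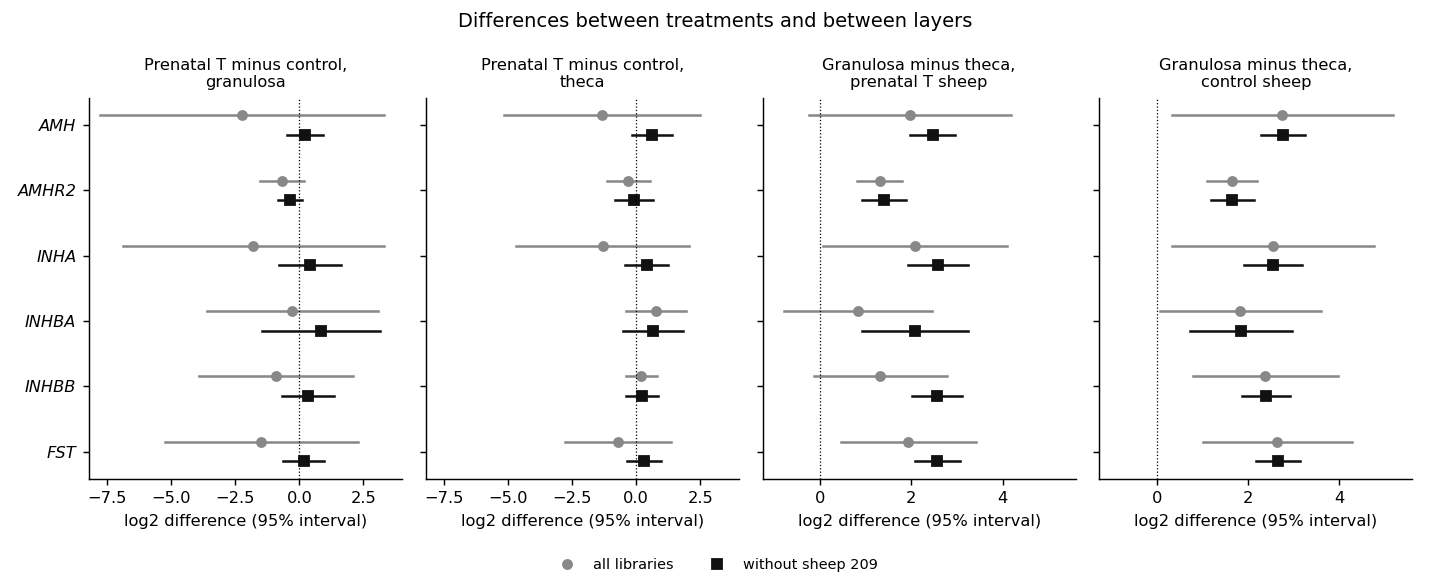
Log2 differences with 95% intervals from limma for prenatal T minus control in granulosa and in theca cells and for granulosa minus theca in prenatal T and in control sheep. Grey circles are fits to all libraries and black squares fits without sheep 209; the treatment intervals all include 0, while without sheep 209 the layer intervals lie above 0 for all 6 genes.

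What theca libraries held of AMH, INHA, INHBB and FST was in the range of what they held of several granulosa markers. In the 8 sheep with both layers and without sheep 209, the theca level of AMH was 11.6% to 20.7% of the granulosa level of the same animal, with a median of 18.5%. The median was 18.4% for INHA (10.4% to 25.3%), 17.5% for INHBB (11.7% to 29.0%) and 17.6% for FST (9.93% to 22.3%). FSHR, which granulosa cells carry, had a median of 20.2% (7.24% to 24.1%), the estradiol-forming enzyme HSD17B1 22.1% (17.8% to 31.4%), the cadherin CDH2 21.5% (14.3% to 25.3%), the nuclear receptor NR5A2 21.5% (10.3% to 27.3%), SERPINE2 25.1% (13.2% to 33.4%) and CYP19 13.6% (3.14% to 24.7%). The other 3 markers were nearly as high in theca, with medians of 67.6% for FOXL2, 82.5% for ESR2 and 87.8% for GATA4. Whether theca cells themselves or granulosa cells in the theca samples gave these reads was not tested.

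INHBA and AMHR2 had higher medians and wider ranges in this measure than AMH, INHA, INHBB and FST. The theca level of INHBA had a median of 27.0% and ran from 11.0% in prenatal T sheep 315 to 54.8% in control sheep 246, with 50.2% in control sheep 224 and 44.4% in prenatal T sheep 210. These 3 sheep had the lowest INHBA in granulosa cells. AMHR2 had a median of 33.2% and ran from 21.5% to 66.1%, on few reads.

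**Figure D3:**
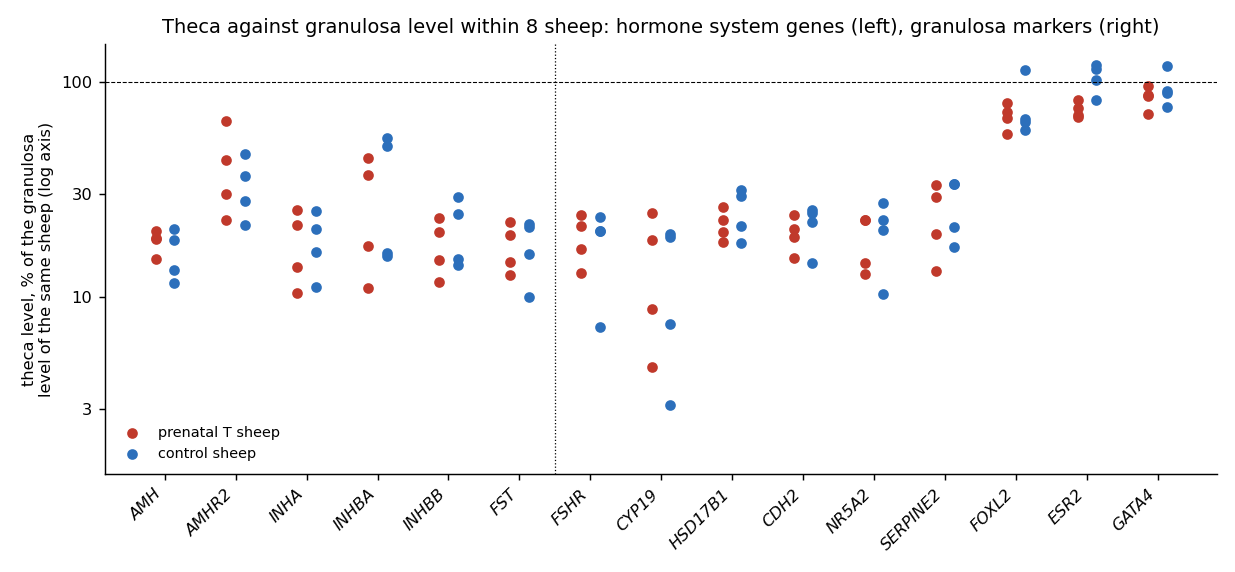
Theca level as a percent of the granulosa level of the same sheep, on a log axis, for the 6 genes and 9 granulosa markers in 4 prenatal T sheep (red) and 4 control sheep (blue), without sheep 209. AMH, INHA, INHBB and FST lie between 9.93% and 29.0%, in the range of FSHR, HSD17B1 and CDH2, whereas INHBA reaches 54.8% and AMHR2 66.1%.

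The ratio of INHBA to INHA, which bears on the subunits at hand for each dimer, was higher in theca than in granulosa cells in 7 of 8 sheep. It ran from 0.288 to 1.77 in granulosa and from 0.579 to 1.76 in theca libraries. These are ratios of normalized counts without gene length, so they rank libraries and do not count molecules. Prenatal T sheep 315 and control sheep 244 had the highest ratio in both layers, at 1.598 in granulosa and 1.69 in theca cells of sheep 315 and 1.77 and 1.76 in those of sheep 244. The ratio of INHBB to INHA was higher in theca in 6 of 8 sheep, that of FST to INHA in 3 and that of AMH to INHA in 3. For markers set over INHA in the same way it was 7 of 8 for HSD17B1, 7 of 8 for CDH2 and 4 of 8 for FSHR. The ratio of FST, the activin-binding protein, to INHBA in granulosa cells was lowest in sheep 315 (0.230) and 244 (0.330) and highest in control sheep 224 (3.84).

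Granulosa libraries of different sheep differed most in INHBA. Without sheep 209 its highest granulosa level was 21.7 times its lowest, against 5.26 times for INHA, 4.03 for INHBB, 3.15 for FST, 2.96 for AMH and 1.89 for AMHR2. The SD of its log2 level over the 8 granulosa libraries was 1.70, where the median over 10902 genes with a mean of at least 100 was 0.249, and 135 of those genes (1.24%) had a larger SD. INHA had an SD of 0.87, which 5.19% of genes exceeded, INHBB 0.73 (7.59%), FST 0.56 (12.5%), AMH 0.51 (15.3%) and AMHR2 0.30 (37.0%). In the 9 theca libraries INHBA again had the largest SD of the 6 genes, at 0.99, which 2.06% of 11450 genes exceeded.

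INHBA and INHA varied together across granulosa libraries, and aromatase went with them. Over 8 granulosa libraries the log2 levels of INHA and INHBA had a Pearson r of 0.96 and a Spearman rho of 0.98, and r was 0.94 without the 2 sheep farthest from the median of INHA. INHBA and CYP19, the enzyme that makes estradiol from androgen, had r = 0.95 and rho = 0.93, and r = 0.98 without the 2 sheep farthest from the median of INHBA. CYP19 had normalized counts of 75.4, 201.8, 319.7 and 4069 in prenatal T sheep 210, 230, 276 and 315, against 109.5, 1767, 43.4 and 278 in control sheep 224, 244, 246 and 268. Sheep 315 and 244, one of each treatment, were thus the highest in INHBA, INHA and CYP19 alike. Among the other 5 genes INHBB went most closely with FST, at r = 0.91 and rho = 0.90. In the 9 theca libraries INHA and INHBA had r = 0.90 and rho = 0.80. Genes measured in the same library share its depth and its mix of follicles and cells, so these values describe the 8 or 9 libraries and carry no test.

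AMH did not follow INHBA across granulosa libraries. The r between them was 0.022 and rho -0.048, and r was -0.66 without the 2 sheep farthest from the median of AMH. Sheep 315 and 244, at the top for INHBA, had 3652 and 3453 AMH, below the median of their groups. The lowest AMH, 2629, was in control sheep 246, whose INHBA of 3087 was also low. AMH went with HSD17B1 (r = 0.91, rho = 0.88) and with FOXL2, a transcription factor that maintains granulosa identity (r = 0.86, rho = 0.86), and against LHCGR, the luteinizing hormone receptor that granulosa cells gain late in follicle growth (r = -0.67, rho = -0.74). In the 9 theca libraries AMH and LHCGR had the opposite sign (r = 0.67, rho = 0.50), which turned to r = -0.40 without the 2 sheep farthest from the median of AMH. AMHR2 had r between -0.45 and 0.0037 with the other 5 genes.

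**Figure D4:**
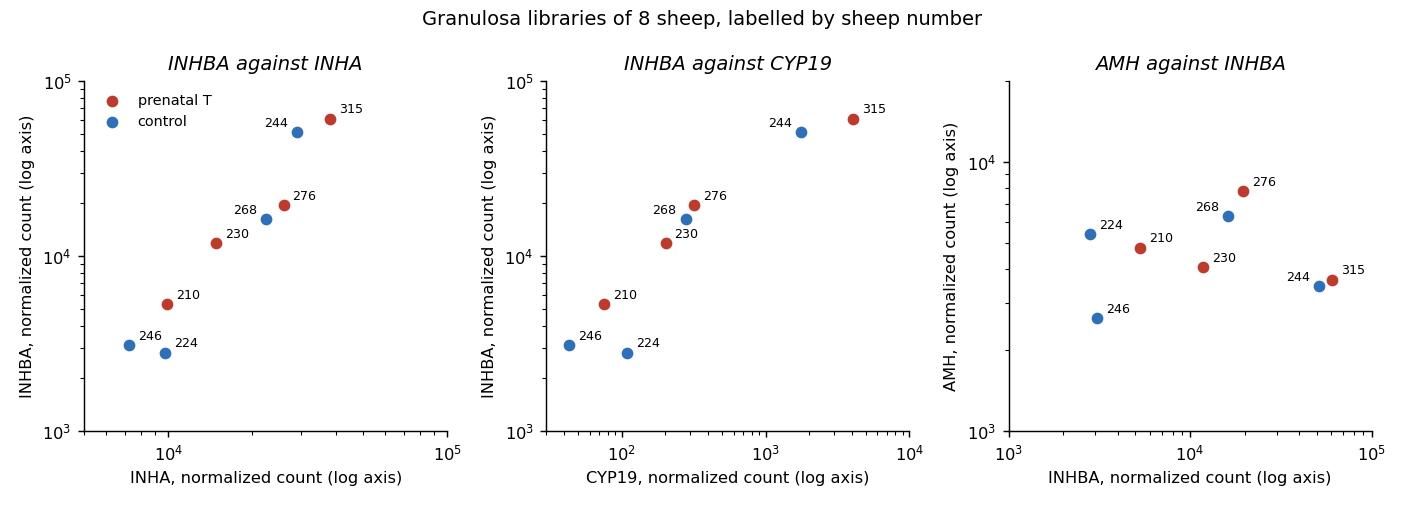
Normalized counts of INHBA against INHA, INHBA against CYP19 and AMH against INHBA, on log axes, in the granulosa libraries of 4 prenatal T sheep (red) and 4 control sheep (blue), each labelled with its sheep number and without sheep 209. Sheep 315 and 244 are highest for INHBA, INHA and CYP19 and low for AMH, and both treatments are spread along each pattern.

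The genes most like each of the 6 were sought among 10378 genes with a symbol and a mean of at least 100, by Pearson r of log2 levels centred within each layer over the 17 libraries without sheep 209. INHA was closest to LRP8, a receptor of reelin and apolipoprotein E (r = 0.97), then to INHBA (0.93) and RUBCN, a negative regulator of autophagy (0.89). INHBA was closest to INHA (0.93), CYP19 (0.89) and GLDN (0.89). INHBB was closest to the chondroitin sulfotransferase CHST11 (0.90), the proteoglycan CSPG4 (0.88) and LRP8 (0.88). FST was closest to the nucleoporin NUP88 (0.95), CHST11 (0.89) and the phosphatase PDP2 (0.85). AMH was closest to the troponin TNNI3 (0.87), PAPSS2, which makes the donor for sulfation (0.86), and HSD17B1 (0.85). AMHR2 was closest to ZNF451 (0.81), VIPAS39 (0.80) and TMCC2 (0.80). The pairs were picked as the highest of many, so their r describes these libraries.

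Between prenatal T and control sheep none of the 6 genes passed the threshold in granulosa cells. With all libraries limma called 0 of 6, where 0.0% of the 14724 genes tested were called, and without sheep 209 it called 0 of 6, where 0.0% of 14460 were. The unadjusted p was under 0.05 for 622 genes with all libraries and for 1013 without sheep 209, none of them one of the 6; edgeR called 0 genes with all libraries and DESeq2 16, again none of the 6. Without sheep 209 the log2 difference, prenatal T minus control, was 0.21 ± 0.32 for AMH (SE, limma adjusted p = 0.883), with a 95% interval of -0.50 to 0.92. For AMHR2 it was -0.36 ± 0.21 (adjusted p = 0.741), with an interval of -0.83 to 0.11. The differences were 0.41 ± 0.53 for INHA, 0.84 ± 1.02 for INHBA, 0.35 ± 0.45 for INHBB and 0.18 ± 0.35 for FST, with adjusted p between 0.851 and 0.913, and the interval of INHBA, -1.45 to 3.14, was the widest.

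With sheep 209 included, these values were below 0 for each of the 6 genes in limma. With all libraries they were -2.24 ± 2.45 for AMH (adjusted p = 0.877), -1.80 ± 2.25 for INHA (0.882), -0.28 ± 1.48 for INHBA (0.965), -0.92 ± 1.33 for INHBB (0.888) and -1.48 ± 1.67 for FST (0.879), each of them above 0 without that sheep. With sheep 209 kept, INHBA was also above 0 without control sheep 244, at 0.54. AMHR2 was below 0 both ways, at -0.67 ± 0.38 with all libraries (adjusted p = 0.875). On the recovered reads of all libraries INHA and INHBA turned to 0.088 and 0.15 in edgeR and to 0.075 and 0.13 in DESeq2. The median over the 6 genes was -1.20 with all libraries and 0.28 without sheep 209, where the median over all genes was -0.015 and -0.013. Without sheep 209 the summed granulosa markers reached 73411 to 96065 in prenatal T and 52937 to 95594 in control granulosa, and the summed theca markers 21030 to 40966 in prenatal T and 34590 to 82176 in control granulosa; their part in the values was not tested. Prenatal T and control values did not separate for any of the 6 genes, where 3.85% of genes did without sheep 209.

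In theca cells none of the 6 genes passed either. Limma called 0 of 6 with all libraries, where 0.0% of 15492 genes were called, and 0 of 6 without sheep 209, where 0.0% of 15304 were. The unadjusted p was under 0.05 for 1192 and 1854 genes, none of them one of the 6; edgeR called 0 genes and DESeq2 7 with all libraries, again none of the 6. Without sheep 209 the log2 difference was 0.62 ± 0.36 for AMH (adjusted p = 0.493), with an interval of -0.17 to 1.41, and 0.66 ± 0.54 for INHBA (adjusted p = 0.623), with an interval of -0.52 to 1.84. It was 0.41 ± 0.38 for INHA, 0.30 ± 0.30 for FST, 0.23 ± 0.29 for INHBB and -0.085 ± 0.33 for AMHR2, with adjusted p between 0.659 and 0.935. With all libraries AMH stood at -1.34 ± 1.73 (adjusted p = 0.817), INHA at -1.30 ± 1.53 (0.798) and FST at -0.71 ± 0.93 (0.819), and these 3 turned to 0.27, 0.16 and 0.10 in both edgeR and DESeq2. INHBA (0.77 ± 0.52, adjusted p = 0.696), INHBB (0.20 ± 0.28, 0.830) and AMHR2 (-0.31 ± 0.38, 0.806) kept their sign. The median over the 6 genes was -0.51 with all libraries and 0.36 without sheep 209, where the median over all genes was 0.00015 and -0.013. No gene of the 6 separated the treatments, where 4.61% of genes did without sheep 209.

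The difference of the prenatal T effects, granulosa minus theca, was tested in 1 model over both layers. Limma called 0 of 6 with all libraries, where 0.0% of 16269 genes were called. Without sheep 209 it called 0 of 6, where 0.0% of 16021 were. An unadjusted p under 0.05 was found for 881 and 1456 genes, none of them one of the 6. With all libraries edgeR, with the sheep as a block, called 0 genes. DESeq2, whose model of this difference had no sheep term and so left out the pairing of layers, also called 0. Without sheep 209 the log2 values were -0.30 ± 0.33 for AMH, -0.26 ± 0.32 for AMHR2, 0.032 ± 0.44 for INHA, 0.24 ± 0.76 for INHBA, 0.17 ± 0.36 for INHBB and -0.076 ± 0.33 for FST, with adjusted p between 0.813 and 0.989. With all libraries they ran from -1.06 ± 1.02 for INHBB to -0.34 ± 0.35 for AMHR2. The medians over the 6 genes were -0.74 with all libraries and -0.022 without sheep 209, where the medians over all genes were -0.020 and -0.029.

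The partners of these genes in the same pathway were counted in 6 lists by limma, and values of single genes are from the fit without sheep 209. Without sheep 209, 26.9% of all genes were called higher and 28.5% lower in granulosa cells of prenatal T sheep, and 26.0% higher and 25.4% lower in those of control sheep. With all libraries it was 21.9% higher and 23.4% lower in prenatal T sheep, and 20.0% higher and 20.2% lower in control sheep. The counts of the lists stand beside these shares as a description, and nothing is read from them as particular to a list. Without sheep 209, of 9 receptors and coreceptors, 4 rose and 4 fell in granulosa relative to theca cells of prenatal T sheep, and 4 rose and 3 fell in those of control sheep, with list medians of -0.18 in prenatal T and 0.17 in control sheep. With all libraries 1 rose and 3 fell in prenatal T sheep (median -0.16), and 2 rose and 2 fell in control sheep (0.17). TGFBR3, the betaglycan that serves inhibin as a coreceptor, fell by 0.84 ± 0.11 on the log2 scale in prenatal T sheep (3144 ± 388 in granulosa and 5646 ± 807 in theca cells) and by 0.51 ± 0.11 in control sheep (4002 ± 719 in granulosa and 5762 ± 609 in theca cells), where the call was lost with all libraries (adjusted p = 0.228). ACVR1, a type I receptor that also serves AMH, fell by 1.30 ± 0.20 in prenatal T and 1.39 ± 0.19 in control sheep. ACVR2B, a type II receptor of activin, rose by 0.95 ± 0.15 in prenatal T sheep (279 ± 63.3 in granulosa and 147 ± 46.7 in theca cells). BMPR1A, another type I receptor of AMH, fell by 0.71 ± 0.08 in prenatal T and 0.42 ± 0.08 in control sheep, and BMPR2, a type II receptor of bone morphogenetic proteins, rose by 0.44 ± 0.07 in control sheep.

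Of 8 SMADs, the proteins that carry the signal to the nucleus, 2 rose and 3 fell in prenatal T sheep and 2 rose and 3 fell in control sheep, with list medians of -0.19 in prenatal T and -0.25 in control sheep. With all libraries 2 rose and 3 fell in prenatal T sheep (median -0.24), and 2 rose and 2 fell in control sheep (-0.25). SMAD2, which activin signals through, rose by 1.43 ± 0.12 in prenatal T sheep (7732 ± 1467 in granulosa and 2861 ± 442 in theca cells) and by 1.44 ± 0.12 in control sheep (7210.3 ± 311 in granulosa and 2608 ± 540 in theca cells). SMAD1, on the branch used by AMH and bone morphogenetic proteins, fell by 0.71 ± 0.10 in prenatal T and 0.72 ± 0.10 in control sheep. The shared partner SMAD4 rose by 0.40 ± 0.10 in prenatal T and 0.39 ± 0.10 in control sheep. With all libraries SMAD1 and SMAD4 missed the threshold in prenatal T sheep (adjusted p = 0.0727 and 0.0927), at -0.46 and 0.26. SMAD5 fell by 0.46 ± 0.07 in prenatal T sheep and SMAD9 by 1.58 ± 0.40 in control sheep.

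Of 9 binding proteins and antagonists 8 were in the table and 7 were tested; 1 rose and 3 fell in each treatment group, with list medians of 0.16 in prenatal T and -0.53 in control sheep. With all libraries 0 rose and 3 fell in each treatment group, and the median turned to -0.28 in prenatal T sheep and was -0.52 in control sheep. FSTL1, a relative of follistatin, fell by 0.86 ± 0.10 in prenatal T and 0.89 ± 0.10 in control sheep. The pseudoreceptor BAMBI fell by 1.34 ± 0.21 in prenatal T and 1.03 ± 0.21 in control sheep, and the secreted protease HTRA1 by 1.56 ± 0.41 in prenatal T and 1.89 ± 0.40 in control sheep. The antagonist NOG rose by 2.22 ± 0.50 in prenatal T and 1.41 ± 0.49 in control sheep at low levels, 21.5 ± 10.6 in granulosa and 4.81 ± 3.27 in theca cells of prenatal T sheep. With all libraries NOG missed the threshold in prenatal T (1.35, adjusted p = 0.0822) and in control sheep (1.39, 0.108). FST, higher in granulosa cells, stood opposite to FSTL1.

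Of 11 other ligands of the same receptors 7 were tested, of which 2 rose and 4 fell in each treatment group, with list medians of -1.02 in prenatal T and -1.15 in control sheep. With all libraries 2 rose and 3 fell in prenatal T sheep (median -1.04), and 2 rose and 4 fell in control sheep (-1.16). BMP6 fell by 2.40 ± 0.35 in prenatal T and 2.29 ± 0.34 in control sheep. BMP4, known as a theca product, fell by 1.12 ± 0.25 in prenatal T and 1.58 ± 0.24 in control sheep. BMP7 fell by 3.61 ± 0.63 in control sheep at low levels, 1.98 ± 3.08 in granulosa and 27.4 ± 12.6 in theca cells. The oocyte ligands BMP15 and GDF9 were higher in granulosa libraries. BMP15 averaged 22.4 ± 10.1 in granulosa and 0.262 ± 0.523 in theca cells of prenatal T sheep. In control sheep it averaged 35.9 ± 28.5 in granulosa cells, with a range from 0 to 65.1, and the 5 theca libraries were all at 0. GDF9 rose by 1.87 ± 0.41 in prenatal T sheep. The summed level of 6 other oocyte markers was 43.1 to 288 in prenatal T and 10.54 to 459.9 in control granulosa, against 7.96 to 29.9 in prenatal T and 4.02 to 26.4 in control theca libraries, and the part of oocyte RNA in these values was not tested.

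Of 6 genes of ligand processing 5 were in the table and were tested between layers, of which 2 rose and 2 fell in prenatal T and 2 rose and 1 fell in control sheep, with list medians of 0.083 in prenatal T and 0.0034 in control sheep. With all libraries 1 rose and 2 fell in prenatal T sheep (median 0.16), and 1 rose and 1 fell in control sheep (0.0056). The proprotein convertase FURIN, which cleaves inhibin and AMH precursors, rose by 0.74 ± 0.09 in prenatal T and 0.61 ± 0.09 in control sheep, and the protease BMP1 by 0.53 ± 0.09 in prenatal T and 0.40 ± 0.08 in control sheep. With all libraries BMP1 missed the threshold in prenatal T (0.26, adjusted p = 0.330) and in control sheep (0.39, 0.178). TLL1, a relative of BMP1, fell by 4.64 ± 0.52 in prenatal T and 3.64 ± 0.50 in control sheep, and PCSK6 by 0.88 ± 0.28 in prenatal T sheep. Of 9 factors known to act at promoters of the 6 genes, 4 rose and 1 fell in prenatal T and 2 rose and 1 fell in control sheep, with list medians of 0.38 in prenatal T and 0.24 in control sheep. With all libraries 1 rose and 1 fell in prenatal T sheep (median 0.10), and 1 rose and 0 fell in control sheep (0.25). NR5A2, a nuclear receptor that drives steroidogenic genes, rose by 2.51 ± 0.24 in prenatal T and 2.50 ± 0.23 in control sheep, close to the differences of AMH, INHA, INHBB and FST. FOXL2 rose by 0.54 ± 0.16 in prenatal T and 0.49 ± 0.16 in control sheep, and GATA6 by 0.42 ± 0.13 in prenatal T sheep. WT1 fell by 1.16 ± 0.19 in prenatal T and 0.87 ± 0.18 in control sheep. With all libraries the values of FOXL2 and GATA6 in prenatal T sheep turned to -0.061 (adjusted p = 0.949) and -0.50 (0.456), and in control sheep FOXL2 (0.48, 0.605) and WT1 (-0.86, 0.0632) missed the threshold. The median over all genes was -0.0058 in prenatal T and 0.038 in control sheep without sheep 209, and 0.0079 and 0.038 with all libraries.

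Between treatments no gene of the 6 lists passed the threshold in granulosa cells, in theca cells or for the difference of effects, with or without sheep 209. The smallest unadjusted p belonged to ACVR2B in theca cells without sheep 209, at 147 ± 46.7 in prenatal T and 254 ± 45.7 in control sheep, a log2 difference of -0.82 ± 0.22 (limma adjusted p = 0.371). In granulosa cells it was at 279 ± 63.3 in prenatal T and 384 ± 74.1 in control sheep, a difference of -0.47 ± 0.21 (adjusted p = 0.719). TGFBR3 had -0.34 ± 0.15 in granulosa cells (adjusted p = 0.712). In theca cells SMAD5 had 0.33 ± 0.11 and SMAD3 -0.36 ± 0.13 (adjusted p = 0.371 for each). For the difference of effects BMPR1A had the smallest p of the lists, at -0.30 ± 0.11 (adjusted p = 0.479).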

How the data were processed

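RNA of granulosa and theca cells cut from frozen sections went into ribosome-depleted, strand-specific libraries, per the labels' protocols. The deposited values are a signal for each gene in each library, which the authors made by scaling the gene's read count with a size factor. Per the submitters' processing notes, the tools were STAR 2.6.0c, featureCounts (Subread 1.6.1), DESeq2, FastQC 0.11.5 and MultiQC 0.9. The genome build and the strand setting of the counting are not given in the sources used here, so no coordinates of the counted genes are given; RefSeq's gene positions served only to look for genes overlapping the 6. All values of a library (100%) were integer multiples of a single step at a relative tolerance of 1e-06, so the reads behind them could be recovered, 12.7 to 26.0 M in a library. Libraries were grouped by the sheep number, treatment and cell type in the labels. The labels list 20 samples, of which 19 have a column, and 0 columns lacked a sample. No 2 libraries of a group were repeats of 1 sample (36 pairs checked, smallest chi-square per degree of freedom 27.7).

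A gene entered a fit where 5 or more of its libraries had a value of 10 or more. limma 3.58.1 in R 4.3.3 was run with a trend of variance on mean, on log2(value + 1), two-sided, with Benjamini-Hochberg adjustment over the genes of a comparison and a threshold of 0.05. A log2 difference on this scale understates the change of low genes. Treatments were compared within each layer. The 2 layers, and the difference of effects, were compared in 1 model of 4 groups with the sheep as a block (estimated correlation 0.62). Both layers come from the same sheep by the labels, and their deviations from group means correlated at r = 0.42 to 0.80 across genes, highest with the own theca in 9 of 9 sheep. Alternatives were pseudocounts of 0.1 and 10, no filter, a filter at 50, edgeR 4.0.16 and DESeq2 1.42.0 on the recovered reads, the sheep block added or left out, and each sheep left out in turn.

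The 6 genes, the pathway and marker lists, and the treatment of sheep 209 were chosen with earlier results of these data known. From a pathway list the genes named are among the 3 of smallest p without sheep 209 in a comparison, or up to 4 where they passed. The limma script was tested on simulated counts with known changes. Their spread was taken without sheep 209, and the layers of a sheep shared no effect. The simulation therefore does not bear on the sheep block or on fits that include sheep 209. Limits from reads cover counting error only. Each library is 1 animal's layer, so the errors of the treatment comparisons within a layer are between animals. The errors of the layer comparisons and of the difference of effects also draw on differences between layers within a sheep.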

Additional observations from a re-analysis of the deposited data

Results flagged for a closer look

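In groups of 4 or 5 libraries, the lowest or highest log2(value + 1) was set against its gap to the next one, over the 24 groups of the 6 genes. In 7 of them sheep 209 stood apart as the lowest of 5 prenatal T libraries. On the log2 scale its gap was more than 0.71 of the group's range. That limit is set to pass about 1 normally distributed group in 20. The rate cannot be set against the 7, since sheep 209 was known beforehand to stand apart and the groups share animals. AMH was 0 in its granulosa library and 0 in its theca library. INHA was 8.05 in its granulosa and 7.59 in its theca library. FST was 43.7 in its granulosa and 67.1 in its theca library, and INHBB was 115 in its granulosa library. The 7 values come from 1 animal and are not separate events. Its INHBB (1450.0) and INHBA (5857) in theca lay within the range of the other theca libraries. FSHR and CYP19, read in the same libraries, were at 0, and the 9 epithelial markers summed to 92321 in its granulosa library, against at most 4139 in the others; their part in the 7 values was not tested.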

How the results depend on the processing

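With all libraries, counts of genes called between treatments moved to 16 in granulosa and 7 in theca cells with DESeq2, to 1 in granulosa cells with the replicate block, and for the difference of effects to 3 with a pseudocount of 0.1, 2 without a filter and 0 to 1 over the sheep left out in turn (1 without 210 or 224). Without the replicate block 3048 genes differed between layers in prenatal T and 2691 in control sheep. The sign of a treatment difference turned in edgeR and DESeq2 for INHA (0.088 and 0.075) and INHBA (0.15 and 0.13) in granulosa cells and for AMH (0.27 in both), INHA (0.16) and FST (0.10) in theca cells. Over the sheep left out in turn, the granulosa differences ran from -3.02 to 0.21 for AMH, -2.60 to 0.41 for INHA, -1.04 to 0.84 for INHBA, -1.34 to 0.35 for INHBB and -2.05 to 0.18 for FST, and the highest value was always the one without sheep 209. INHBA also turned without sheep 244, to 0.54. The theca differences ran from -2.03 to 0.62 for AMH, -1.98 to 0.41 for INHA and -1.23 to 0.30 for FST, and the difference of effects from -0.76 to 0.032 for INHA, -1.58 to 0.24 for INHBA and -1.50 to 0.17 for INHBB. The cause of these turns other than leaving out sheep 209 was not tested. No layer difference of the 6 genes turned its sign under any alternative. Between layers AMH and INHA passed in control sheep also with a pseudocount of 10 (adjusted p = 0.0134 and 0.0398), and FST missed in prenatal T sheep without a filter (0.106). The 4 or 5 sheep per group, and the 28 to 70 reads of AMHR2 per theca library outside sheep 209, limit which differences were detectable.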
